A study of Mus musculus with 4 samples.

Results

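The aryl hydrocarbon receptor (AhR) pathway was followed in mouse liver through 7 genes, those of the receptor (Ahr), its partner (Arnt), its repressor (Ahrr) and the direct targets Tiparp, Cyp1a1, Cyp1a2 and Cyp1b1. They were chosen by name, and all 7 were found, once each, among the 56748 genes of the deposited table. Livers came from 2 NSG mice given JIB-04 by oral gavage at 55 mg/kg, as 5 doses at 2 per week, and from 2 NSG mice that were left untreated. All 4 mice carried the genotype label WT. NSG mice are immunodeficient, without mature lymphocytes or natural killer cells, and JIB-04 is a compound that blocks the Jumonji enzymes, which strip methyl groups from histones. The control mice received no vehicle by gavage, so the drug and the gavage cannot be told apart. No source used here gives the age of the mice. Each group holds 2 mice, and each library is the liver of a separate mouse.

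The AhR is a ligand-activated transcription factor of the basic helix-loop-helix PAS family. It waits in the cytosol in a complex with the HSP90 chaperone, binds dioxin-like chemicals, plant indoles and tryptophan metabolites, then enters the nucleus, pairs with ARNT and binds xenobiotic response elements whose core reads GCGTG. Its best known answer in liver is induction of the CYP1 cytochromes P450, and AHRR and TIPARP, both made in response to the receptor, act back on it as brakes.

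The comparison asked whether repeated JIB-04 dosing moved this pathway in liver. None of the 6 genes that could be tested was called different between the groups, and Ahrr was too low to test. Cyp1a2, the CYP1 enzyme that liver makes constitutively, averaged 215 ± 14.3 FPKM in JIB-04 livers and 251 ± 42.4 FPKM in untreated livers (SD, n = 2). Cyp1a1, the gene most used as a readout of AhR activation, averaged 0.269 ± 0.0216 FPKM in JIB-04 livers and 0.352 ± 0.0551 FPKM in untreated livers. Ahr itself averaged 10.5 ± 1.09 FPKM in JIB-04 livers and 8.82 ± 1.57 FPKM in untreated livers. FPKM are reads per kilobase of gene, scaled to the size of the library, so levels of different genes are compared per length.

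From 36469514 to 43283827 reads per library could be recovered from the FPKM values. Hepatocyte markers summed to 42514 and 34947 FPKM in JIB-04 livers and to 60793 and 59252 FPKM in untreated livers, with all 8 above 0 in every library, and 5 of 8 T, B and natural killer cell markers were at 0 in all 4 libraries. Markers of other cell types moved too. Neutrophil markers summed to 45.5 and 73.1 FPKM in JIB-04 livers against 27.1 and 6.90 FPKM in untreated livers, with 3 of 7 above 0 in every library. Red cell markers summed to 655 and 1782 FPKM in JIB-04 livers against 2952 and 1845 FPKM in untreated livers. The part of these cell types in the results was not tested. Kupffer cell, endothelial, stellate cell and cholangiocyte markers were all above 0 in every library. In whole liver, fewer cells of a type and less RNA per cell cannot be told apart. An exact two-sided permutation test of 2 mice against 2 has a smallest p of 1 in 3, so limma, which borrows its estimate of spread from all genes, was used for each gene.

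The start-site windows of 4 target genes are shown because the receptor acts on them through the GCGTG core, and because the deposited levels of the neighbouring genes Cyp1a1 and Cyp1a2 lay far apart. The windows run from 250 bases before to 50 bases after the annotated start, and the sequences are RefSeq's on build GRCm38.p6, a different build from that of the deposited coordinates. Capitals mark GCGTG read on either strand (CACGC on the other strand).
Cyp1a1, chr9:57697363-57697662 (+): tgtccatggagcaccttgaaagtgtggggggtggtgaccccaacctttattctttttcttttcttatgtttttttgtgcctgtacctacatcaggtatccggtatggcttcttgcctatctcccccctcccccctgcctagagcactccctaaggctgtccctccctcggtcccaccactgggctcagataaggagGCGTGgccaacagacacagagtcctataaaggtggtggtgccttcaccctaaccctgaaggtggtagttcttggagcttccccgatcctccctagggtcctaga
Cyp1a2, chr9:57683606-57683905 (-): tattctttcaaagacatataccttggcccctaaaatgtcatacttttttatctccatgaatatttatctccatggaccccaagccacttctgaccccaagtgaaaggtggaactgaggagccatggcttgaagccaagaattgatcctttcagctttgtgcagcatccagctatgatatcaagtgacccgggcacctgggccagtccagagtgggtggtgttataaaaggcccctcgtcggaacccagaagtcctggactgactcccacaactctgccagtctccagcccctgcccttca
Tiparp, chr3:65528197-65528496 (+): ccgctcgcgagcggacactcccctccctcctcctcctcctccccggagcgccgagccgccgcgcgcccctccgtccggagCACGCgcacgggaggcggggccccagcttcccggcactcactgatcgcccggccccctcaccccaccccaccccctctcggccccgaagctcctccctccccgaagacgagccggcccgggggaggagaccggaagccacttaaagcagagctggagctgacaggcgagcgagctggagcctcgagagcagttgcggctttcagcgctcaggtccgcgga
Ahrr, chr13:74292282-74292581 (-): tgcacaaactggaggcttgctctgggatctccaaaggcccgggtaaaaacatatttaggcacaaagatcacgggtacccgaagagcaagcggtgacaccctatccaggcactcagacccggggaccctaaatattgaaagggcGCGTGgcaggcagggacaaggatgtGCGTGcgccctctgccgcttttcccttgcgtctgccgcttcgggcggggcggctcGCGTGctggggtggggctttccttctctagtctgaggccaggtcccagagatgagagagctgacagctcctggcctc

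A window was matched for 6 of the 7 genes, Arnt and Cyp1b1 among them. GCGTG was found on either strand in 5 of these 6 windows, against 32.4% of all 32851 windows of the same length. Ahrr held 3 copies, at 107, 82 and 27 bases before the start, Cyp1a1 held 1 at 54 bases before it, and Tiparp held 1 at 170 bases before it. Arnt and Cyp1b1 also held 1 each. The window of Cyp1a2 held none. The longer form TNGCGTG, which contains GCGTG, was in 1 of the 6 windows, that of Ahrr, against 5.07% of all windows. A match describes these letters only, and the windows leave out the far upstream elements for which Cyp1a1 is known.

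The receptor gene Ahr (ENSMUSG00000019256) lies on chromosome 12 from 35547973 to 35585037 on the minus strand (GRCm39, as are all gene positions that follow). It stood at 9.73 and 11.3 FPKM in JIB-04 livers 1 and 2, against 9.92 and 7.71 FPKM in untreated livers 1 and 2. The groups overlapped, because untreated liver 1 was above JIB-04 liver 1. The log2 change on log2(FPKM + 1) was 0.23 (SE 0.15, 95% interval -0.13 to 0.60, limma adjusted p = 0.548). The interval runs from 0.915-fold to 1.51-fold on that scale.

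Arnt (ENSMUSG00000015522, chromosome 3, 95341699 to 95404551, plus strand) encodes the nuclear partner that AhR needs to bind DNA, and which also pairs with the hypoxia-inducible factors. It stood at 5.64 and 4.22 FPKM in JIB-04 livers and at 5.45 and 5.10 FPKM in untreated livers, and both untreated values lay between the JIB-04 values. Its log2 change was -0.091 (SE 0.15, 95% interval -0.45 to 0.27, limma adjusted p = 0.847), and it was 0.083 without JIB-04 2. The ratio of Ahr to Arnt in FPKM was 1.73 and 2.67 in JIB-04 livers and 1.82 and 1.51 in untreated livers, so it was highest in JIB-04 liver 2 and overlapped between groups.

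Both brakes of the receptor, Tiparp and Ahrr, had lower values in both JIB-04 livers than in either untreated liver. Tiparp was not called. Ahrr was too low to test, and its groups were parted only by 8 reads in JIB-04 liver 1 against 9 reads in untreated liver 2. Tiparp (ENSMUSG00000034640, chromosome 3, 65435831 to 65462939, plus strand) encodes a mono-ADP-ribosyltransferase that modifies AhR and limits its activity. It stood at 2.68 and 2.05 FPKM in JIB-04 livers and at 3.20 and 3.90 FPKM in untreated livers, from 328 to 642 reads per library. The log2 change was -0.44 (SE 0.15, 95% interval -0.80 to -0.073), with an unadjusted limma p of 0.0255 and an adjusted p of 0.233. A larger absolute change was seen in 11.4% of the 10819 genes tested, and 1680 of them had an unadjusted p under 0.05. On recovered reads its log2 change was -0.58 (SE 0.20, voom adjusted p = 0.151). An overlapping pseudogene on the opposite strand, 4931440P22Rik, held 16 to 32 reads per library, and whether the counts used strand is not given in the sources used here.

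Ahrr (ENSMUSG00000021575, chromosome 13, 74359237 to 74440450, minus strand) encodes a repressor that competes with AhR for ARNT and for the response element, and it was nearly silent in these livers. It held 8 and 0 reads in JIB-04 livers and 14 and 9 reads in untreated livers, which is 0.0198 and 0 FPKM against 0.0404 and 0.0252 FPKM. The count of 0 in JIB-04 liver 2 allows up to 0.00865 FPKM, the value of 3 reads. The groups did not overlap. The rate of reads in JIB-04 over untreated livers was 0.325 (95% interval 0.126 to 0.753, exact Clopper-Pearson on summed reads). That interval covers counting error only, not the spread between mice, and takes every read as independent. Counts of 2 recurred in near-silent genes. Arnt2 held 2 and 0 reads in JIB-04 livers and 2 and 0 in untreated livers. Aldh3a1 held 2 and 0 against 2 and 2, and Npas1 held 1 and 2 against 0 and 2. Whether both reads of a pair were counted was not tested, and the interval is too narrow if they were. At these counts Ahrr was too low for either test.

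**Figure D1:**
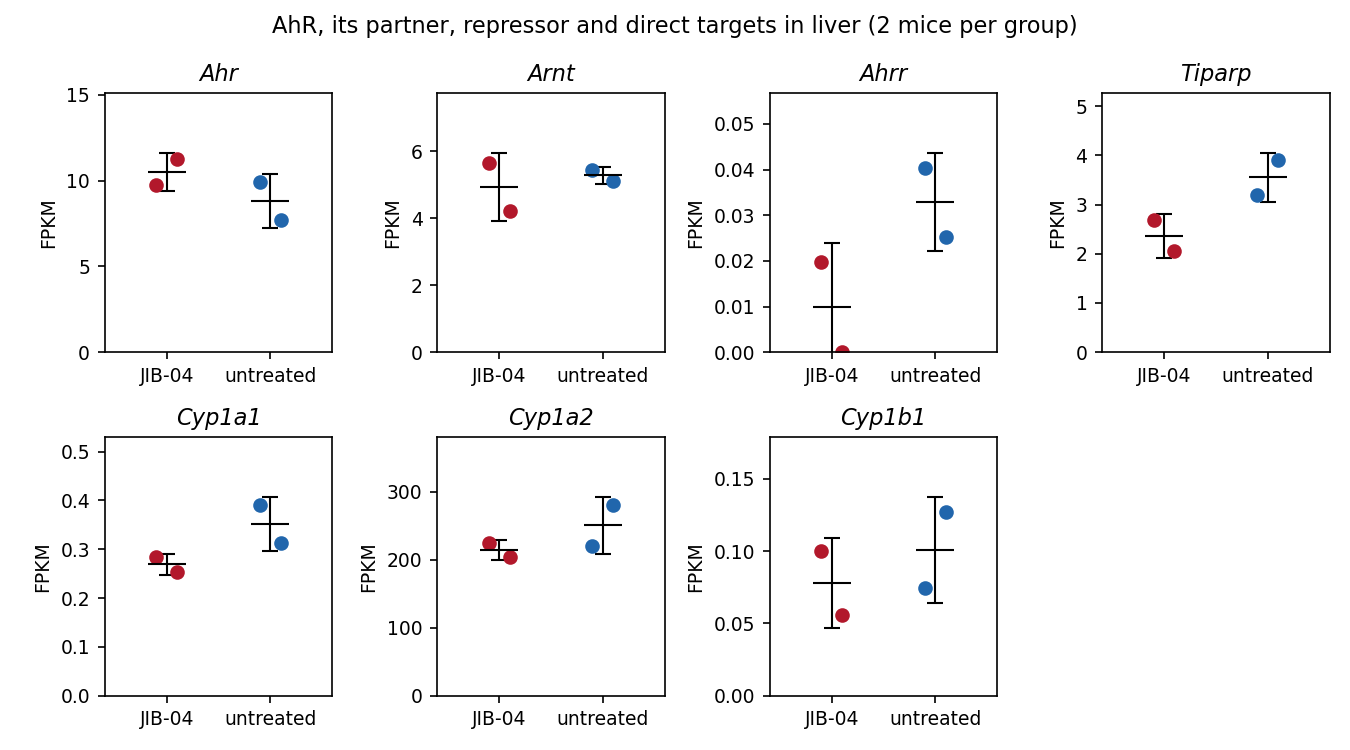
FPKM of each of the 7 genes, with 1 point per liver, the mean as a line and the SD as a bar (n = 2), JIB-04 at the left of each panel and every axis starting at 0. Groups overlap for Ahr, Arnt, Cyp1a2 and Cyp1b1, while Tiparp, Cyp1a1 and Ahrr lie lower in both JIB-04 livers. The part of the bar of Ahrr below 0 is not drawn.

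The CYP1 enzymes oxidize polycyclic aromatic hydrocarbons, aromatic amines, caffeine and estrogens. Their summed level was 225 and 205 FPKM in JIB-04 livers and 221 and 281 FPKM in untreated livers, and Cyp1a2 made up 99.8% of it in every library. Cyp1a2 (ENSMUSG00000032310, chromosome 9, 57584220 to 57590986, minus strand) stood at 225 and 205 FPKM in JIB-04 livers, against 221 and 281 FPKM in untreated livers. Untreated liver 1 lay between the JIB-04 livers and untreated liver 2 stood apart above them. It was counted with 15117 to 21343 reads per library and ranked 188 by mean FPKM among protein-coding genes above 0.

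The log2 change of Cyp1a2 was -0.21 (SE 0.16, 95% interval -0.59 to 0.17, limma adjusted p = 0.605), which spans 0.663-fold to 1.12-fold. It was -0.39 without untreated 1 and -0.042 without untreated 2, so the size of the difference moved with the choice of untreated liver. A larger absolute change was seen in 34.0% of tested genes.

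Cyp1a1 (ENSMUSG00000032315, chromosome 9, 57595211 to 57611107, plus strand) lies next to Cyp1a2 in the opposite direction. The RefSeq start sites of the pair are 13958 bases apart on GRCm38.p6. Cyp1a1 stood at 0.285 and 0.254 FPKM in JIB-04 livers and at 0.391 and 0.313 FPKM in untreated livers. Every value was under the filter of a mean FPKM of 1, and both JIB-04 livers were lower than both untreated livers.

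The reads behind Cyp1a1 numbered 34 and 26 in JIB-04 livers and 40 and 33 in untreated livers. The rate of reads in JIB-04 over untreated livers was 0.769 (95% interval 0.537 to 1.10, counting error only), so no difference was detectable at this depth. On recovered reads the log2 change was -0.37 (SE 0.56, 95% interval -1.56 to 0.82, voom adjusted p = 0.849), and this interval allows up to 1.77-fold higher expression in JIB-04 livers. In FPKM, Cyp1a2 was 790 and 805 times Cyp1a1 in JIB-04 livers and 564 and 895 times in untreated livers. Of the 50-base stretches of the longest Cyp1a1 transcript 3.55% also occur in Cyp1a2, and no source used here says how the authors counted reads that match both. The share of the Cyp1a1 reads that could stem from Cyp1a2 was not tested.

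Cyp1b1 (ENSMUSG00000024087, chromosome 17, 80008966 to 80022490, minus strand), a CYP1 enzyme known mainly from tissues other than the hepatocyte, held 25 and 12 reads in JIB-04 livers and 16 and 28 reads in untreated livers. These are 0.0999 and 0.0560 FPKM in JIB-04 livers and 0.0747 and 0.127 FPKM in untreated livers, and the groups overlapped. The rate of reads in JIB-04 over untreated livers was 0.787 (95% interval 0.494 to 1.25, counting error only), and the voom log2 change was -0.35 (SE 0.72, adjusted p = 0.896).

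**Figure D2:**
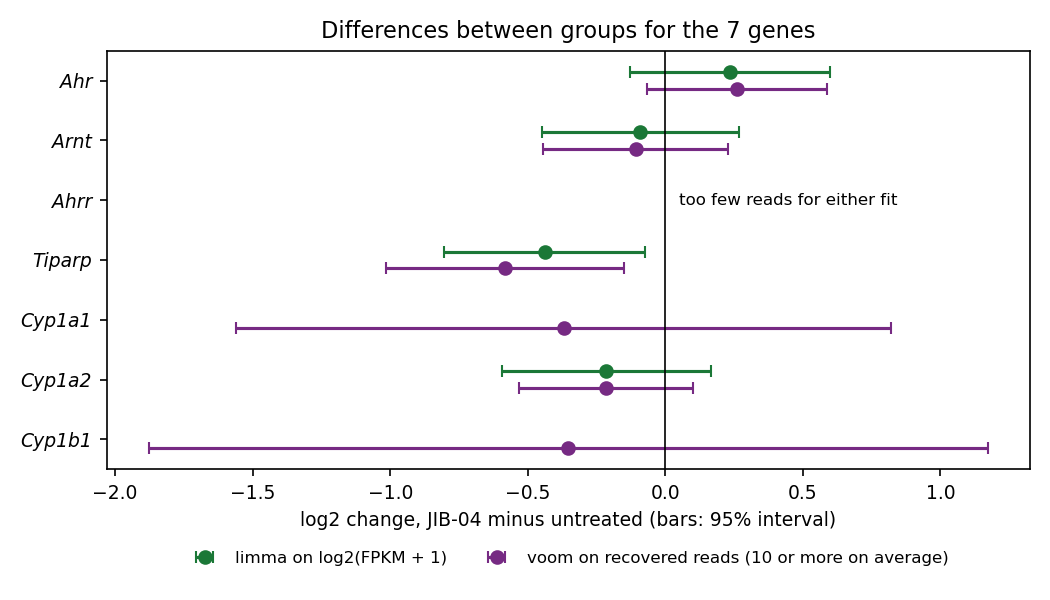
Log2 change of JIB-04 minus untreated for the 7 genes, with 95% intervals, from limma on log2(FPKM + 1) for the 4 genes over the filter and from voom on recovered reads for the 6 genes with at least 10 reads on average. The intervals of Tiparp, -0.80 to -0.073 and -1.01 to -0.15, are the ones that lie wholly below 0, before adjustment over all genes.

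Of the 7 genes 4 passed the filter, and limma called 0 of them, with 1 at an unadjusted p under 0.05 (Tiparp). Over all 10819 tested genes 2.14% were called (232 genes), 1.53% higher and 0.619% lower. Voom on genes of at least 10 reads on average, which took in 6 of the 7, also called 0, with 1 at an unadjusted p under 0.05, against 3.96% of its 15879 genes. The mean was lower in JIB-04 livers for 6 of the 7 genes, Ahr being the exception, under the deposited scaling, as TPM, as TPM once mitochondrial genes and the 50 of highest level were left out, and as a share of recovered reads. For Arnt that direction turned without JIB-04 2 (log2 change 0.083). For Cyp1b1 it turned without untreated 2 (0.0040 on log2(FPKM + 1)). Among tested genes 48.6% had a negative log2 change. Groups did not overlap, with JIB-04 lower, in 3 of the 7 (Tiparp, Cyp1a1 and Ahrr), against 18.3% of the 25266 genes with any read.

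In order of mean FPKM the 7 genes ran Cyp1a2, Ahr, Arnt, Tiparp, Cyp1a1, Cyp1b1 and Ahrr, and each gene's lowest library was above the highest library of the next. The closest neighbours were Arnt, whose lowest value was 4.22 FPKM, and Tiparp, whose highest was 3.90 FPKM. Cyp1a2 exceeded Ahr 24.1-fold in mean FPKM, and Tiparp exceeded Cyp1a1 9.51-fold.

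The genes around Cyp1a1 and Cyp1a2 were described because the pair differed so widely in level. Within 100 kb of the pair, 6 other genes had a value above 0, and the tyrosine kinase gene Csk was highest among them, at 14.1 and 14.9 FPKM in JIB-04 livers and 13.7 and 12.6 FPKM in untreated livers. Of the 5 that passed the filter limma called 0, with 0 at an unadjusted p under 0.05, and their log2 changes ran from -0.17 (Ulk3) to 0.25 (Scamp2). These genes were picked by position after the data were seen.

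**Figure D3:**
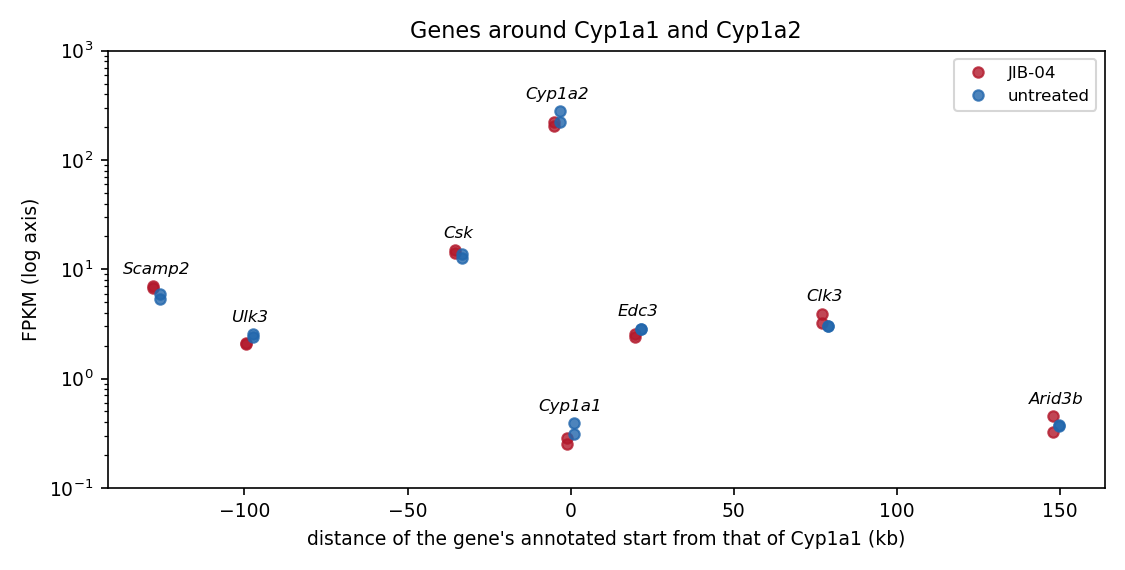
FPKM, on a log axis, of the genes within 100 kb of Cyp1a1 and Cyp1a2 in each of the 4 livers, placed by the distance in kb of each gene's annotated start from that of Cyp1a1. Cyp1a2, at 205 to 281 FPKM, and Cyp1a1, at 0.254 to 0.391 FPKM, stand side by side, and both groups lie within the same decade for every gene.

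The proteins that hold AhR in the cytosol or act with it in the nucleus were described as a list of 26 genes, Ahr and Arnt included, of which 24 passed the filter. Limma called 1 higher (Src) and 0 lower, with 23 not past the test, against 2.14% called of all tested genes. The median log2 change was 0.092 against 0.0068 over all tested genes. That median was 0.043 without JIB-04 1, 0.037 without untreated 1 and 0.042 as TPM without mitochondrial genes and the 50 of highest level. Src, the tyrosine kinase found in the cytosolic AhR complex, rose to 2.57 and 2.87 FPKM in JIB-04 livers, against 0.824 and 1.19 FPKM in untreated livers (log2 change 0.89, SE 0.15, limma adjusted p = 0.0398). Both JIB-04 livers lay more than the whole untreated spread above the untreated livers.

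The Src call ended without any 1 of the libraries (adjusted p = 0.165 and 0.233 without JIB-04 1 and 2, 0.153 and 0.0576 without untreated 1 and 2), without the filter (0.254), and with neither trend nor robust moderation (0.0518). The chaperone gene Hsp90ab1 averaged 253 FPKM in JIB-04 livers and 178 FPKM in untreated livers (adjusted p = 0.146). Its relative Hsp90aa1 averaged 57.1 FPKM in JIB-04 livers and 36.7 FPKM in untreated livers (adjusted p = 0.242).

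Other genes known to answer AhR ligands or dioxin in liver gave the calls that the 7 genes did not. Of 41 listed, 32 passed the filter, limma called 7 higher and 1 lower, and 24 did not pass the test, with a median log2 change of 0.20, which was 0.34 without JIB-04 1, 0.33 without untreated 1 and 0.096 without the filter. The share of calls in the list was above the 2.14% of all tested genes. The list was chosen with earlier results of these data known, so this excess is not an independent result. Several of the called genes are also known targets of CAR, PXR or NRF2, and which regulator lay behind them was not tested. Drug-oxidizing Cyp2a5 rose to 2134 and 2052 FPKM in JIB-04 livers, against 374 and 446 FPKM in untreated livers (log2 change 2.35, SE 0.15, limma adjusted p = 0.000885). The glutathione transferase gene Gsta2 rose to 10.1 and 10.5 FPKM in JIB-04 livers, against 2.29 and 3.33 FPKM in untreated livers. In both, the JIB-04 livers agreed closely and stood clear of the untreated ones.

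Nedd9, a focal adhesion scaffold gene, rose to 3.71 and 3.03 FPKM in JIB-04 livers, against 1.25 and 1.20 FPKM in untreated livers (adjusted p = 0.0236). Tsku, which encodes the secreted protein tsukushi, rose to 61.6 and 47.5 FPKM in JIB-04 livers, against 17.7 and 24.9 FPKM in untreated livers (adjusted p = 0.0379). In neither of these did the groups come near each other. Gsta1 rose on few reads, with 141 and 66 in JIB-04 livers against 2 and 0 in untreated livers (adjusted p = 0.0167). It passed the filter through the JIB-04 livers alone, and 89.7% of its longest transcript's 50-base stretches occur in other genes. The same share was 64.2% for Gsta2 and 40.8% for Cyp2a5, so these values may mix related genes.

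Gadd45b, a stress gene named after its values were seen, was at 77.8 and 35.1 FPKM in JIB-04 livers and at 2.51 and 2.28 FPKM in untreated livers (adjusted p = 0.0437). Calls in this list numbered 1 higher and 0 lower without JIB-04 1 and likewise without JIB-04 2, against 4 and 0 without untreated 1, 5 and 0 without untreated 2, and 1 and 0 without the filter. Gadd45b alone kept its call without JIB-04 1 and without JIB-04 2 (adjusted p = 0.00824 and 0.00582), and lost it without untreated 1 (0.224), without untreated 2 (0.220), without the filter (0.108), as TPM without mitochondrial genes and the 50 of highest level (0.0513), with voom (0.159) and with voom on genes of at least 10 reads (0.201). The call of Tsku also ended with neither trend nor robust moderation (adjusted p = 0.0516), with quantile normalization (0.0674) and without untreated 1 (0.0655). That of Nedd9 also ended without untreated 1 (0.0827) and without untreated 2 (0.0840), and that of Gsta1 without untreated 2 (0.0537).

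The others of the list that passed the filter were not called. Nqo1, a quinone reductase of the classical AhR gene battery, averaged 9.19 FPKM in JIB-04 livers and 5.66 FPKM in untreated livers (adjusted p = 0.190; named after its values were seen). Aldh3a1, an aldehyde dehydrogenase of the same battery that was named in the same way, was at or under 0.0281 FPKM in every library. Ugt1a6a, a glucuronosyltransferase of the battery, likewise named after its values were seen, averaged 3.08 FPKM in JIB-04 livers and 1.96 FPKM in untreated livers (adjusted p = 0.376).

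**Figure D4:**
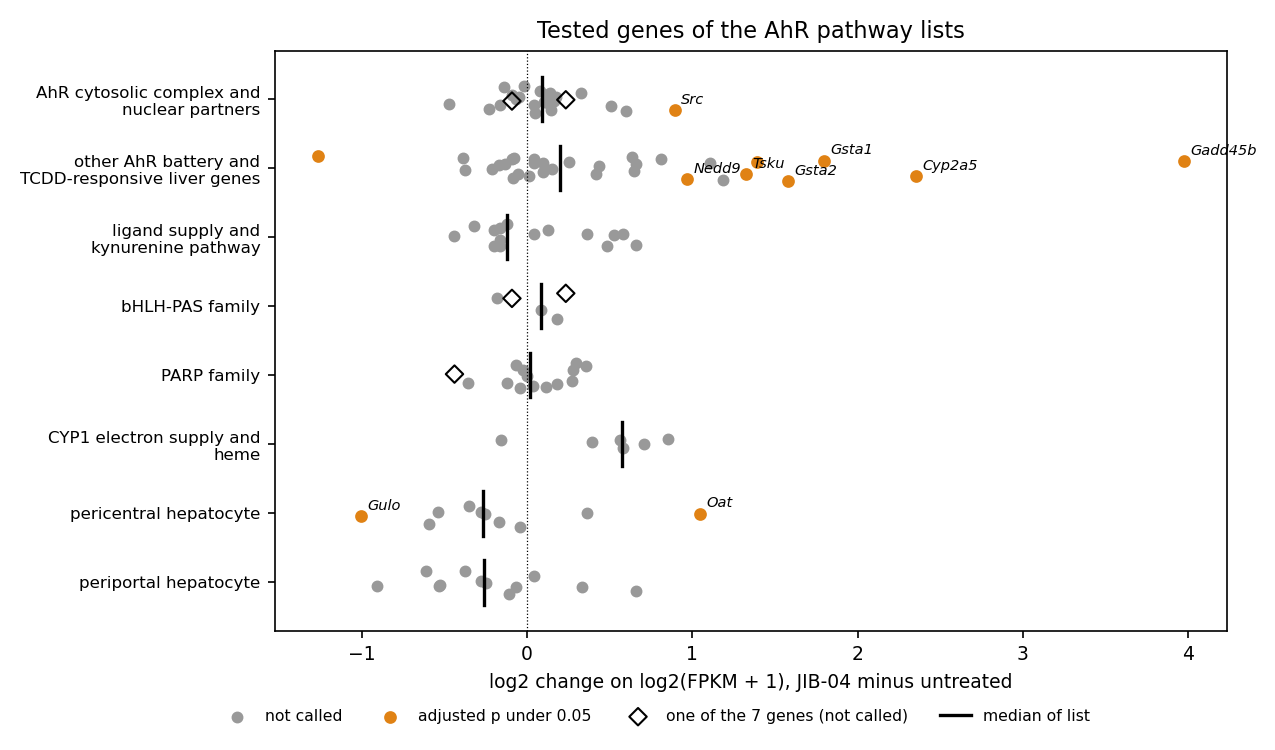
Log2 change of JIB-04 minus untreated on log2(FPKM + 1) for the tested genes of 8 lists, 1 point per gene, spread vertically for legibility, with the list's median as a bar. Orange points are calls at an adjusted p under 0.05, named where the text gives their values, and the diamonds are Ahr, Arnt and Tiparp, which were not called.

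Genes that make or break down the tryptophan-derived ligands of AhR formed a list of 18, of which 15 passed the filter. Limma called 0 of them, with 5 at an unadjusted p under 0.05, and voom called 2 higher, Afmid and Acmsd. Over all genes limma called 2.14% and voom 3.96%, and 1680 of 10819 had an unadjusted limma p under 0.05. The median log2 change was -0.12, but -0.067 without JIB-04 2, 0.0049 without untreated 2 and -0.056 without the filter. Tdo2, the hepatic dioxygenase that opens the kynurenine route, stood at 209 and 217 FPKM in JIB-04 livers and at 289 and 289 FPKM in untreated livers (log2 change -0.44, SE 0.12, limma adjusted p = 0.151). Afmid, which encodes the next enzyme of that route, stood at 15.1 and 15.3 FPKM in JIB-04 livers and at 9.49 and 10.1 FPKM in untreated livers (limma adjusted p = 0.0592, voom adjusted p = 0.0167). Acmsd, which diverts the pathway away from NAD synthesis, averaged 5.54 FPKM in JIB-04 livers and 3.14 FPKM in untreated livers (limma adjusted p = 0.0627, voom adjusted p = 0.0279). Kynu averaged 28.1 FPKM in JIB-04 livers and 19.7 FPKM in untreated livers (limma adjusted p = 0.171). Ido1, the dioxygenase of immune cells, too low to test and named after its values were seen, was at 0 in all 4 livers.

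Electron supply and heme, which every microsomal P450 needs, formed a list of 6 genes. Limma called 0, with 5 at an unadjusted p under 0.05, against 1680 of all 10819 tested genes. Voom called 4 higher, against 3.96% called of all its genes, and the median log2 change was 0.57. Pgrmc1, a heme-binding partner of P450 enzymes, stood at 983 and 1085 FPKM in JIB-04 livers and at 624 and 639 FPKM in untreated livers (log2 change 0.71, SE 0.14, limma adjusted p = 0.0606, voom adjusted p = 0.00873). Cyb5a, which encodes cytochrome b5, stood at 468 and 538 FPKM in JIB-04 livers and at 345 and 325 FPKM in untreated livers (limma adjusted p = 0.106, voom adjusted p = 0.0323). The groups did not overlap in either gene. Por and Alas1 were the other voom calls, at limma adjusted p of 0.0889 and 0.0754.

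Relatives of the regulators were described in the same way. Of 16 listed bHLH-PAS genes 14 were in the table and 5 passed the filter, and limma called 0, with 0 at an unadjusted p under 0.05 and 0 by voom. Epas1, which encodes HIF-2 alpha and shares ARNT as a partner, averaged 37.0 FPKM in JIB-04 livers and 32.3 FPKM in untreated livers (adjusted p = 0.663). Hif1a averaged 6.60 FPKM in JIB-04 livers and 7.64 FPKM in untreated livers (adjusted p = 0.573). Arnt2, the alternative partner known mainly from brain, likewise too low to test and named with its values known, was at or under 0.00709 FPKM in every library. Of 14 tested PARP family genes, Tiparp included, limma called 0 and voom called 0. An unadjusted limma p under 0.05 was seen in 3 of them, against 1680 of all 10819 tested genes. Parp3 averaged 6.84 FPKM in JIB-04 livers and 9.06 FPKM in untreated livers (adjusted p = 0.229), and Parp9 averaged 15.4 FPKM in JIB-04 livers and 12.5 FPKM in untreated livers (adjusted p = 0.314).

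Cyp1a2 is known as an enzyme of hepatocytes around the central vein, so genes of that zone were set beside it. Of 10 tested pericentral genes limma called 1 higher and 1 lower, with 6 at an unadjusted p under 0.05. Voom called 1 higher and 2 lower, and the median log2 change was -0.26 (-0.42 with quantile normalization). Oat, an ornithine aminotransferase, rose to 271 and 322 FPKM in JIB-04 livers, against 153 and 132 FPKM in untreated livers (adjusted p = 0.0248), and Gulo, the last enzyme of vitamin C synthesis, fell to 106 and 103 FPKM in JIB-04 livers, against 216 and 204 FPKM in untreated livers (adjusted p = 0.0140). Both calls ended when JIB-04 1 was left out (adjusted p = 0.125 for Oat and 0.120 for Gulo), when JIB-04 2 was (0.192 and 0.143) and without the filter (0.211 and 0.137), and that of Oat ended without untreated 2 (0.0731). Glul, the glutamine synthetase of the innermost pericentral cells, named after its values were seen, averaged 212 FPKM in JIB-04 livers and 257 FPKM in untreated livers (adjusted p = 0.513). Of 12 tested periportal genes limma called 0, with 5 at an unadjusted p under 0.05, whereas voom called 1 higher and 3 lower. The median log2 change was -0.26 as well (-0.17 without JIB-04 1). For both zones the shares over all genes were 2.14% called by limma and 3.96% by voom. An unadjusted limma p under 0.05 was seen in 1680 of 10819 genes.

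Profiles most like those of Cyp1a2 and Tiparp, the member of highest level and the tested member of largest change, were sought among 9648 protein-coding genes over the 4 libraries. Likeness was the Euclidean distance between log2(FPKM + 1) values centred on their mean. For Cyp1a2 the nearest were Armc1 (distance 0.0410), Paox (0.0495) and Ranbp6 (0.0527). For Tiparp they included Tppp (0.0330) and Psd3 (0.0488). These distances rest on 4 livers and describe those only.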

How the data were processed

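Liver RNA of 4 mice was sequenced, after Trizol extraction per the labels' protocols. A single table was deposited by the authors, in FPKM, with gene lengths and coordinates. Its build is GRCm39 per the submitters' processing notes, and aligner, counter, annotation release and strandedness were not given in the sources used here. Each FPKM times its gene length was a whole number of steps (100% of values, tolerance 0.01), and the step is 1 read, worth 0.0233 to 0.0273 FPKM per kb of gene. Read intervals, given for Ahrr, Cyp1a1 and Cyp1b1, cover counting error only and take reads as independent. They are too narrow if both reads of a pair were counted, which was not tested. Limma 3.58.1 in R 4.3.3 was run on log2(FPKM + 1), two-sided, with trend and robust options, for genes averaging at least 1 FPKM. P-values were adjusted by Benjamini-Hochberg over all of these, and a call is an adjusted p under 0.05. This scale understates changes of low genes. Alternatives were another pseudocount, no filter, other scalings, plain moderation, voom, a block and leaving out each library. Voom on genes of at least 10 reads and centring on the median were added after the data were seen, and voom values in the text are from that fit unless stated. The fits were tried on simulated counts of genes averaging at least 1 FPKM, with the same fixed spread for every gene. That simulation does not cover Cyp1a1, Cyp1b1 and Ahrr, nor the spread between these mice. The 7 genes and the lists were chosen with earlier results of these data known. Named genes were the 7 and, from each list, up to 6 called genes in order of p, or the 4 of lowest p, and the 3 genes nearest in profile to 2 of the 7. Names outside this rule were chosen with their values known. Values of several genes under this rule are left out and not reported here.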

Additional observations from a re-analysis of the deposited data

How the results depend on the processing

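The 4 tested genes of the AhR pathway stayed uncalled under all 14 alternatives, with adjusted p from 0.139 (Tiparp, voom) to 0.984 (Arnt, without untreated 1). Ahr, Tiparp and Cyp1a2 kept their direction in all 14, with log2 changes from 0.071 to 0.40, from -0.58 to -0.30 and from -0.39 to -0.042. Arnt turned to 0.083 when JIB-04 2 was left out, against -0.26 at the lowest with another library left out, and the cause was not tested. Calls over all genes numbered 232, against 20 without the filter, 550 with voom, 629 with voom on genes of at least 10 reads (added after the data were seen), 357 with the replicate number as a block (which ended the call of Tsku, adjusted p = 0.0558), and 23 to 156 when 1 library was left out, the lone library being assumed to vary like the other group. The deviations of same-numbered libraries from their group means correlated at -0.0492 over the tested genes. With 2 libraries per group this is a single contrast, so it cannot settle whether the numbers pair the mice. Counts of reads limit Cyp1a1, Cyp1b1 and Ahrr. Among the alternative scalings, leaving out mitochondrial genes and the 50 of highest level moved the median log2 change of all tested genes furthest, by -0.044.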

Other observations

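Fgf21, the gene of a fasting hormone of liver that dioxin is known to induce in mice, averaged under the filter and was not tested by limma. It held 4 and 0 reads in JIB-04 livers against 50 and 69 reads in untreated livers, which is 0.0981 and 0 FPKM against 1.43 and 1.92 FPKM. Voom on genes of at least 10 reads called it lower (log2 change -5.37, SE 1.25, voom adjusted p = 0.0215). It reached that limit through the untreated livers alone, and it was chosen after its values were seen.

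Inmt, a methyltransferase of indole amines, and Ugdh, which makes UDP-glucuronate, stood just outside the limma threshold, and both were named after their values were seen. Inmt was at 594 and 837 FPKM in JIB-04 livers and at 293 and 365 FPKM in untreated livers (limma adjusted p = 0.0553, voom adjusted p = 0.00207). Ugdh was at 37.2 and 27.5 FPKM in JIB-04 livers and at 11.1 and 16.3 FPKM in untreated livers (limma adjusted p = 0.0649, voom adjusted p = 0.00833).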
